A study of Nothobranchius furzeri with 168 samples.

Results

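The 120 genes described here were chosen by their expression values, for a change between a young and an old age in the skin of male GRZ-D turquoise killifish together with a small change in the skin of male MZM-0403 fish. Their level, called L here, is the group mean of log2(CPM + 1), where CPM is the count of a gene scaled to the library's total count. Of 26739 gene IDs in the table, 13875 had an L of at least 2 in MZM-0403 at day 35, and 5052 of these differed by less than 0.3 in size between day 287 and day 35 of that strain. The 120 with the largest absolute difference between day 147 and day 35 in GRZ-D were kept. Of these, 111 were higher at day 147 and 9 were lower, and they are called rising and falling members. The choice used the values of these 4 groups, so the differences between them are a description, and no test is given for them. Between day 35 and day 147 the rising members differed by a median of 1.65 on the log2 scale and the falling members by a median of -1.75, with a largest absolute difference of 3.74. Just inside the limit lay Nfu_g_1_008078 at 1.4579 and Nfu_g_1_020637 at 1.4575, and just outside lay Nfu_g_1_009299 at 1.4568 and Nfu_g_1_019524 at 1.4551.

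The turquoise killifish, Nothobranchius furzeri, is an annual fish of temporary African ponds that matures and ages within months and is used as a vertebrate model of ageing. GRZ strains are the shortest-lived of its laboratory strains, and strains founded later from wild fish, such as MZM-0403, live longer. Fish skin is a living, mucus-covered epithelium over a dermis with scales, pigment cells, vessels and immune cells, and it is exposed to the water throughout life. The deposited table pairs no ID with a name, and the RefSeq genes of the NfurGRZ-RIMD1 assembly matched 0 of them, so no function can be given for any gene below, and lists of skin cell markers or pathways could not be applied.

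The series holds 168 libraries of total RNA, 1 of brain and 1 of skin from each of 84 fish of the strains GRZ-D, MZCS-0403 and MZM-0403, which its design text divides into a short-lived strain (GRZ-D) and longer-lived strains. The male skin groups are GRZ-D at day 21 (8 fish), day 35 (6), day 100 (7) and day 147 (6, of which 5 are used), MZCS-0403 at day 21 (6), day 39 (4), day 147 (3) and day 287 (2), and MZM-0403 at day 21 (6), day 35 (5) and day 287 (6). Female skin groups are MZCS-0403 at day 147 (1) and day 217 (5) and MZM-0403 at day 147 (5). No treatment is named in the labels. The oldest age differs between the strains, so strain, age in days and stage of life cannot be told apart in comparisons of age changes between them. In 16 libraries the expression profile was closer to the tissue not on the label. All 16 belong to GRZ-D males of day 49, GRZ-D females of day 49 or MZCS-0403 females of day 287. These groups were not compared, and they entered only the fits with all libraries of the tissue. Every other library was closer to its labelled tissue, with r of at least 0.897 to that tissue and at most 0.597 to the other over 18728 genes. Skin libraries held 12376397 to 36230200 counts, which puts 3 counts at 0.242 CPM or less.

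The number of rising and falling members depended on the scale. In the skin of GRZ-D at day 35 the 10 most counted genes held 23.4% to 29.7% of all counts, and at day 147 they held 14.7% to 20.4%. Among them was Nfu_g_1_002091, with 5.20% ± 1.81 (SD, n = 6) of the counts at day 35 and 2.02% ± 1.44 (SD, n = 5) at day 147. Nfu_g_1_023149 held 3.37% ± 0.537 and 0.772% ± 0.457, and Nfu_g_1_018490 held 2.86% ± 0.41 and 0.651% ± 0.354 in the same libraries. By total counts, the median of the 5052 genes was 0.395 higher at day 147 than at day 35, and 79.6% of them were higher. With totals scaled by the trimmed mean of M-values (TMM), which sets the bulk of genes level, that median was -0.00735. With TMM totals the same choice gave 46 rising and 74 falling genes (38.3% rising, against 92.5% by total counts). Of the 120 members 38 stayed among them, 33 of the 111 rising and 5 of the 9 falling. On that scale 106 of the 120 still met the MZM-0403 conditions. All 111 rising members were still higher at day 147 with TMM totals, by at least 0.976, and all 9 falling members were still lower, with a median of -2.24. Values in CPM and tests below use TMM totals.

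**Figure D1:**
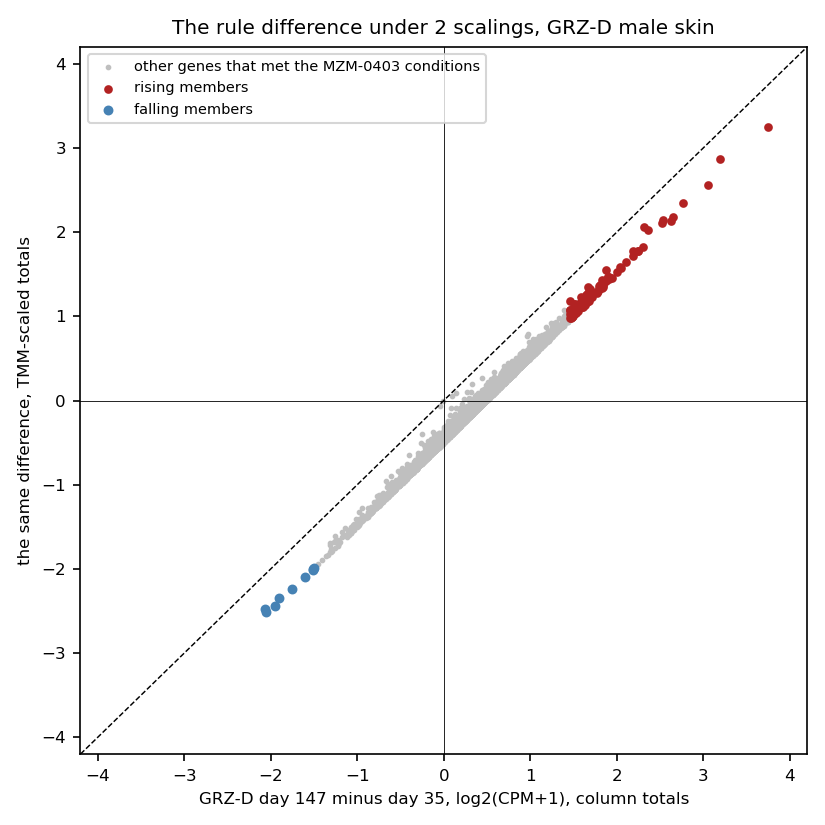
Difference between day 147 and day 35 in GRZ-D male skin on the log2(CPM + 1) scale for the 5052 genes that met the MZM-0403 conditions, by total counts (x axis) and by TMM-scaled totals (y axis), 1 point per gene. Nearly all points lie below the dashed line of equal values, and the 111 rising members lie at 0.976 or more on the y axis.

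The level of the rising members in each library shows the order of the groups. In GRZ-D their median log2(CPM + 1) was 3.23 to 3.66 over the 8 libraries of day 21, 3.04 to 3.54 at day 35, 3.75 to 4.02 at day 100 and 4.05 to 4.73 in the 5 libraries of day 147. The ranges of day 100 and day 147 lay above those of both young ages and did not overlap with each other. The choice itself set these members higher at day 147 than at day 35. In MZM-0403 males the range was 3.68 to 4.15 at day 21, 3.42 to 4.12 at day 35 and 3.70 to 4.14 at day 287. These ranges overlap, and the choice itself required a small change between day 35 and day 287. In MZCS-0403 males it was 3.51 to 3.83 at day 21, 3.5 to 3.79 at day 39, 3.93 to 4.24 at day 147 and 3.81 to 3.91 at day 287. MZCS-0403 at day 147 therefore lay above both young ages of its own strain, as the old GRZ-D groups did. At day 287 its 2 libraries lay below day 147 and above day 39, and overlapped with day 21. The 5 libraries of MZCS-0403 females at day 217 were at 3.36 to 3.68, which overlaps with young GRZ-D males and lies below MZCS-0403 males at day 147.

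The per-library median of the falling members was lower at the oldest than at the youngest male age in all 3 strains. On this scale those ranges did not overlap. By total counts they overlapped in GRZ-D, at 4.73 to 5.84 at day 21 and 3.67 to 5.01 at day 147. They also overlapped in MZM-0403, at 5.63 to 6.46 at day 21 and 4.34 to 5.78 at day 287. The choice itself set these members lower at day 147 than at day 35 in GRZ-D. Their median was 5.02 to 5.83 in GRZ-D at day 21, 6.01 to 6.51 at day 35, 3.6 to 4.84 at day 100 and 3.61 to 4.64 at day 147. In MZCS-0403 males it was 5.02 to 6.73 at day 21, 4.61 to 5.97 at day 39, 3.88 to 4.39 at day 147 and 3.74 to 3.79 at day 287. With TMM totals it was 5.74 to 6.59 in MZM-0403 males at day 21, 5.3 to 5.63 at day 35 and 4.43 to 5.72 at day 287. In this strain the level at day 21 thus lay above the later ranges, narrowly so for day 287. The small change of MZM-0403 between day 35 and day 287, which the choice required, thus leaves out a lower median after day 21. Single members went either way in this strain. By total counts Nfu_g_1_018773 had an L of 7.267 at day 21 and 5.862 at day 287. For Nfu_g_1_011955 it was 1.382 and 2.472.

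**Figure D2:**
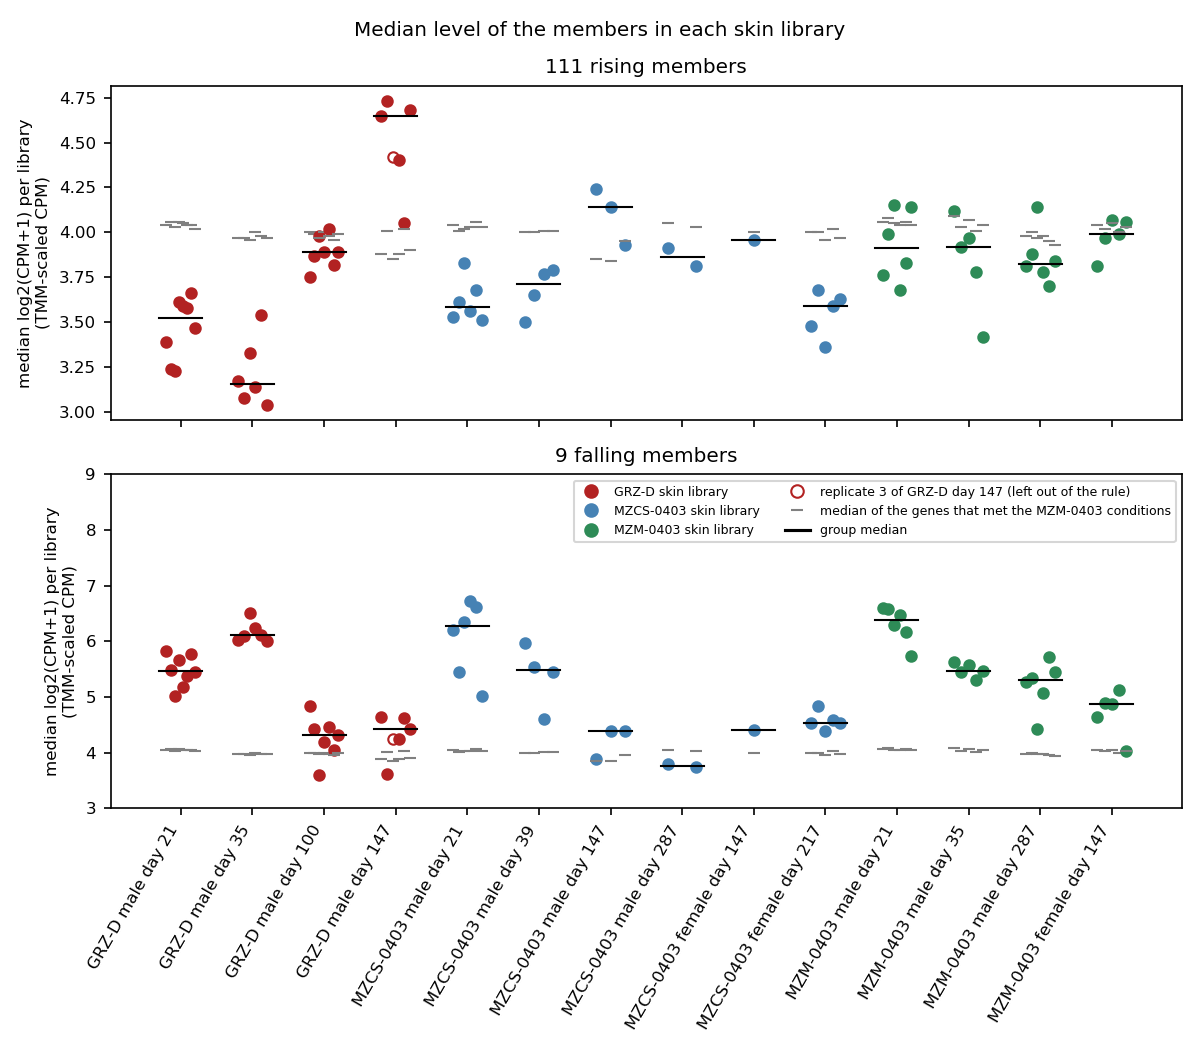
Median log2(CPM + 1), with TMM-scaled totals, of the 111 rising members (top) and the 9 falling members (bottom) in each skin library, 1 point per library, with a black line at each group median and grey dashes for the 5052 genes. The rising members were at 4.05 to 4.73 in GRZ-D at day 147 and at 3.93 to 4.24 in MZCS-0403 males at day 147.

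The day 147 libraries of GRZ-D differed among themselves. Over the 6 libraries of that age, 42 of the 111 rising members were highest in replicate 2 and 48 were lowest in replicate 5. The total count was 30634381 in replicate 2 and 26415566 in replicate 5, and 12825605 to 22849674 in the other 4, against 28620376 to 31815911 at day 35, and the part of depth in these differences was not tested. Replicate 3 was left out when the members were chosen, so it holds the same measure in a fish that the choice did not use. Set against day 21 profiles, its r was 0.897 to skin, the lowest of the 6 (0.903 to 0.951 in the others). Its r to brain was 0.488, against 0.365 to 0.393 in the others. By total counts over the 5052 genes, each of the other 5 had r of 0.922 to 0.969 with the mean of the other 4. Replicate 3 had r of 0.973 with the mean of those 5. Its level was above all 6 libraries of day 35 for 94 of the 111 rising members (84.7%), against 23.8% of the 5052 genes and 37.0% of all 22952 genes tested in skin. It was below all 6 libraries for the 9 falling members, against 48.7% of the 5052 genes and 33.8% of all genes tested. Split by tissue at day 21, by total counts, it was above day 35 for 44 of the 44 rising members higher in brain than in skin by at least 1 on the log2 scale, for 36 of 37 with a smaller difference and for 14 of the 30 higher in skin. Over the 5052 genes these shares were 33.6%, 18.6% and 9.05%. The part of its higher r to brain in the count of 94 was not tested, and the day 35 libraries were used in the choice. Between the 5 libraries used and day 35, 86 of the 120 members (77 of the rising) did not overlap, beside 22.0% of the 5052 genes, as the choice itself favours.

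The first rising member, Nfu_g_1_004531, differed more between old fish of 1 group than between young groups. In GRZ-D at day 147 it was at 977, 1273, 13787, 13957 and 17318 CPM, and at 16566 CPM in replicate 3. At day 35 the lowest, median and highest libraries were at 410, 473 and 1296 CPM. The low libraries of day 147, replicates 2 and 5, overlap with the range of day 35, and the others lie about an order of magnitude above it. In MZCS-0403 it was at 543, 614, 786 and 845 CPM at day 39 and at 3165, 17137 and 19192 CPM at day 147, with no overlap. That difference was 4.24 on the log2 scale (SE 0.499, edgeR adjusted p = 2.82e-09). At MZCS-0403 day 287 its 2 libraries were at 839 and 1058 CPM, and in MZM-0403 at day 287 it was at 332 to 547 CPM, with a median of 443. GRZ-D at day 100, with 565 to 689 CPM, did not overlap with day 21, at 338 to 537 CPM, but the difference of 0.48 did not pass the test (SE 0.312, edgeR adjusted p = 0.206). The test takes the spread of a gene over all skin groups in the fit, with the scattered day 147 groups among them. The part of those groups in this outcome was not tested.

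Nfu_g_1_025084 was high in the same libraries at a far lower level. It was at 3.85 and 4.02 CPM in replicates 2 and 5 of GRZ-D at day 147, at 24.8, 32.9 and 34.8 CPM in the other 3 libraries used, and at 27.5 CPM in replicate 3. At day 35 it was at 1.33 to 3.77 CPM, with a median of 2.45. In MZCS-0403 it was at 3.52, 5.11, 5.57 and 5.89 CPM at day 39 and at 7.34, 25.9 and 29.5 CPM at day 147, a log2 change of 2.06 (SE 0.42, edgeR adjusted p = 8.31e-05). The 2 libraries of MZCS-0403 at day 287 were at 1.13 and 1.63 CPM, below every library of day 39.

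Nfu_g_1_000283 was raised in every old GRZ-D library. It was at 112, 130.1, 178, 203 and 249 CPM at day 147 and at 22.5 to 32.0 CPM at day 35, with a median of 28.2. The libraries of day 21 (32.7 to 77.6 CPM) and day 100 (39.5 to 72.1 CPM) overlapped, and the fitted change between them was 0.004 (SE 0.212, edgeR adjusted p = 0.992). For this gene day 35 was thus the low point of the 4 ages, and day 100 was not above day 21. It rose in MZCS-0403 from 46.1, 46.7, 51.1 and 52.1 CPM at day 39 to 69.6, 88.3 and 138 CPM at day 147, a log2 change of 1.01 (SE 0.311, edgeR adjusted p = 0.00791).

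Nfu_g_1_002426 rose in the skin of GRZ-D and of MZCS-0403. In GRZ-D it was at 2.64 to 5.78 CPM at day 21, 2.22 to 4.75 at day 35, 7.0 to 13.8 at day 100 and 13.3, 14.7, 16.1, 22.2 and 30.4 CPM at day 147. Day 100 lay above day 21 without overlap, with a log2 change of 1.39 (SE 0.191, edgeR adjusted p = 1.79e-08). In MZCS-0403 it went from 6.09, 6.92, 7.99 and 8.60 CPM at day 39 to 20.1, 22.5 and 24.2 CPM at day 147 (log2 change 1.59, SE 0.276, edgeR adjusted p = 6.18e-06). MZM-0403 males were at 4.68 to 5.75 CPM at day 35 and 3.62 to 8.49 CPM at day 287, which overlap.

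Nfu_g_1_019317 was at 106 to 128 CPM in GRZ-D at day 35 and at 210.1, 275, 551, 938 and 1320.5 CPM at day 147. It rose from 132 to 281 CPM at day 21 to 328 to 599 CPM at day 100, with no overlap (log2 change 1.20, SE 0.229, edgeR adjusted p = 1.48e-05). In MZCS-0403 it was already at 354, 354, 392 and 397 CPM at day 39 and at 294, 328 and 367 CPM at day 147. These overlap, and the change of -0.18 did not pass the test (SE 0.337, edgeR adjusted p = 0.708). At day 21 MZCS-0403 was lower, with an L of 7.119 against 8.617 at day 39 and 8.645 at day 147. The change from day 21 to day 100 in GRZ-D minus that from day 21 to day 147 in MZCS-0403 was 0.075. It did not pass the test (SE 0.386, edgeR adjusted p = 0.906).

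Nfu_g_1_015289 and Nfu_g_1_020053 were lower in young GRZ-D than in young MZM-0403. Nfu_g_1_015289 was at 0.0693 to 1.60 CPM in GRZ-D at day 21, with a median of 0.619, and at 7.25 to 52.0 CPM in MZM-0403 at day 21, with a median of 26.9. At GRZ-D day 147 it was at 5.82, 6.03, 8.68, 16.0 and 59.7 CPM, above the 0.534 to 1.27 CPM of day 35. Nfu_g_1_020053 was at 4.14 to 14.2 CPM in GRZ-D at day 21 and at 17.0 to 32.5 CPM in MZM-0403, with no overlap. It was at 2.99 to 4.65 CPM at GRZ-D day 35 and at 17.2, 18.4, 19.7, 23.4 and 35.5 CPM at day 147.

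For Nfu_g_1_010552 the old and young GRZ-D libraries overlapped. It was at 46.8, 74.0, 110.4, 131 and 146 CPM at day 147 and at 8.83 to 65.6 CPM at day 35, with a median of 15.5. At day 21 it was at 25.2 to 79.7 CPM, so that day 35 was again the lower of the young ages by the median.

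**Figure D3:**
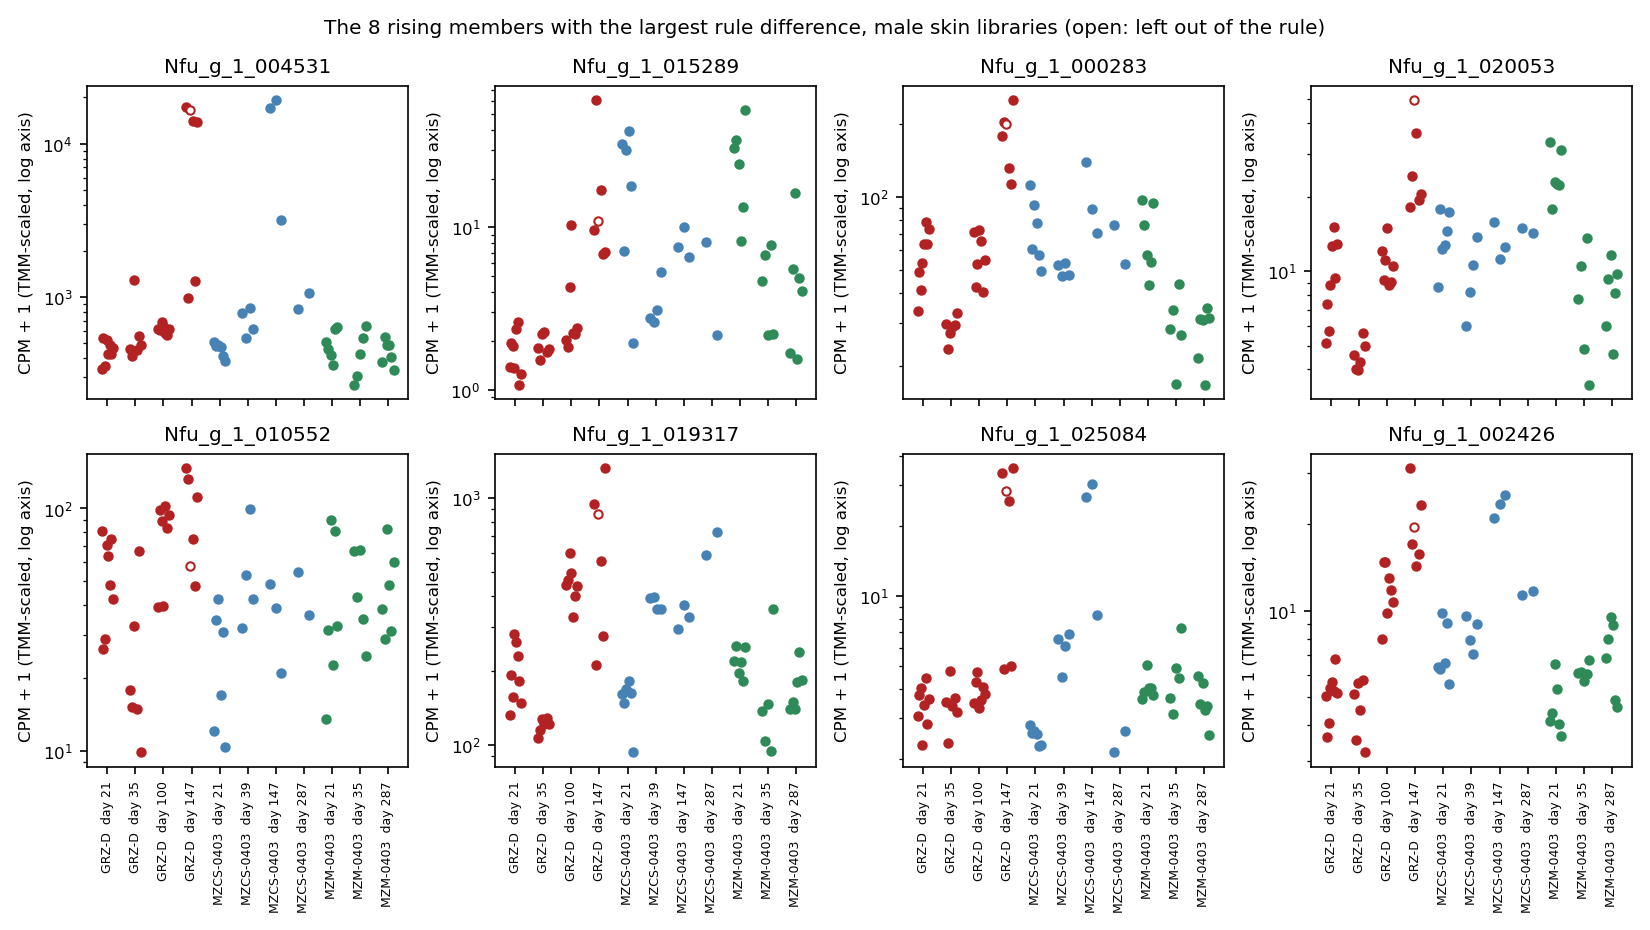
CPM + 1 with TMM-scaled totals, on a log axis, of the 8 rising members with the largest difference in the choice, 1 point per male skin library, coloured by strain (red GRZ-D, blue MZCS-0403, green MZM-0403); the open point is replicate 3 of GRZ-D at day 147. Nfu_g_1_004531 reached 13787 CPM or more in 3 of the 5 GRZ-D libraries used at day 147 and 17137 CPM or more in 2 of 3 MZCS-0403 libraries at day 147.

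Among the falling members, Nfu_g_1_011955 was at 10.4 to 18.7 CPM in GRZ-D at day 35 and at 0.846, 1.10, 1.66, 2.39 and 3.10 CPM at day 147. It fell between day 21 (6.27 to 17.7 CPM) and day 100 (3.83 to 9.03 CPM), with a log2 change of -0.98 (SE 0.287, edgeR adjusted p = 0.00368), although these ranges overlap. In MZCS-0403 it fell from 5.65, 6.09, 7.23 and 8.48 CPM at day 39 to 1.82, 1.93 and 2.13 CPM at day 147 (log2 change -1.80, SE 0.464, edgeR adjusted p = 0.00148). Its 2 libraries at MZCS-0403 day 287 were at 3.95 and 12.9 CPM, both above those of day 147.

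Nfu_g_1_013031 had the lowest fitted change of the falling members in both strains. In GRZ-D it was at 12.1 to 30.9 CPM at day 21, 31.7 to 39.0 CPM at day 35, 1.8 to 8.48 CPM at day 100 and 2.87, 3.73, 4.58, 5.41 and 13.1 CPM at day 147. Day 100 against day 21 gave a log2 change of -1.99 (SE 0.382, edgeR adjusted p = 1.76e-05) with no overlap. In MZCS-0403 it fell from 11.8, 19.3, 21.3 and 27.1 CPM at day 39 to 2.20, 3.06 and 4.05 CPM at day 147 (log2 change -2.66, SE 0.603, edgeR adjusted p = 0.000342). Nfu_g_1_021436 also fell in both, by 0.99 in GRZ-D (SE 0.176, edgeR adjusted p = 4.05e-06) and by 1.31 in MZCS-0403 (SE 0.266, edgeR adjusted p = 8.02e-05).

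Within GRZ-D, Nfu_g_1_018675 was highest at day 35. Its lowest and highest libraries were 4.04 and 16.0 CPM at day 21, 51.3 and 90.4 CPM at day 35 and 6.94 and 18.7 CPM at day 100, and at day 147 it was at 2.91, 5.59, 17.9, 17.9 and 23.9 CPM. Every library of day 35 lay above those of the other 3 ages. In the other strains day 21 was at 52.5 to 100.1 CPM in MZM-0403, with a median of 94.7, and at 9.01 to 105 CPM in MZCS-0403, with a median of 76.2, against medians of 10.8 and 62.9 in GRZ-D at days 21 and 35. Nfu_g_1_008225 had the same form, with a median of 241 CPM at day 21, 1039 CPM at day 35, 271 CPM at day 100 and 176 CPM at day 147. For both genes the change from day 21 to day 100 did not pass the test (log2 change 0.16 with edgeR adjusted p = 0.772, and 0.40 with edgeR adjusted p = 0.273).

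GRZ-D at day 100 against day 21 asks whether the members also differ between a young and an older age in fish the choice did not use. Of the 111 rising members, 49 rose (44.1%), 5 fell and 57 did not pass the test. Over all 22952 genes tested in skin, 23.2% rose and 24.5% fell, and over the 5052 genes that met the MZM-0403 conditions 17.3% rose and 28.0% fell. The median log2 change of the rising members was 0.41, against -0.008 over all genes tested and -0.073 over the 5052. The change was at least 2-fold for 25 of the 49. This held for 2099 of the 5325 genes that rose among all tested, and for 131 of 873 among the 5052. With only the compared groups in the fit 58 rising members rose and 8 fell, and 12005 genes were called in all in place of 10937. The 5 rising members that fell became 3 without replicate 8 of day 21. For 34 rising members every day 100 library lay above every day 21 library, against 13% of all genes tested. Nfu_g_1_010951 rose most among those at 5 CPM or more, from 2.45 to 6.56 CPM at day 21 to 17.3 to 21.8 CPM at day 100 (log2 change 2.07, SE 0.258, edgeR adjusted p = 1.47e-09). Nfu_g_1_013265 went from 6.61 to 38.9 CPM to 57.5 to 149 CPM, also without overlap (log2 change 2.04, SE 0.341, edgeR adjusted p = 1.29e-06).

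Of the 9 falling members, 5 fell between day 21 and day 100 and 4 did not pass the test, with a median log2 change of -0.95. With all libraries of the tissue in the fit 3 of the 9 fell. The number that rose was 0 by edgeR, also at an unadjusted p under 0.05, and 0 by DESeq2. A rising member that fell was Nfu_g_1_004367, at 27.1 to 45.3 CPM at day 21, 10.4 to 14.6 CPM at day 35 and 7.52 to 11.4 CPM at day 100 (day 100 against 21: log2 change -1.92, SE 0.258, edgeR adjusted p = 1.04e-08). At day 147 it was at 13.6 and 17.7 CPM in replicates 5 and 2 and at 70.1, 94.7 and 121 CPM in the other libraries used. Set against day 35, which the choice used, day 100 had a higher L for 110 of the 111 rising members and a lower L for all 9 falling members. By total counts 84.4% of the 5052 genes were higher at day 100 than at day 35 as well.

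In MZCS-0403, day 147 against day 39 asks whether a second strain shows the change. Of the rising members, 30 rose (27.0%), 7 fell and 74 did not pass the test. Over all genes tested 18.5% rose and 18.9% fell, and over the 5052 genes 11.7% rose and 28.4% fell. The median log2 change of the rising members was 0.34, against 0.12 over all genes tested and -0.15 over the 5052. By L, which uses total counts, the median change was 0.507 for the rising members and 0.051 for the 5052 genes. Some members therefore changed in MZCS-0403 too, and in MZM-0403 a small change was required only between day 35 and day 287. Of the 9 falling members 6 fell in MZCS-0403, with a median of -1.41, and 0 rose by edgeR, also at an unadjusted p under 0.05, or by DESeq2. Nfu_g_1_006855 rose from 1.12, 1.15, 1.41 and 2.30 CPM at day 39 to 4.52, 10.3 and 22.7 CPM at day 147 (log2 change 3.07, SE 0.899, edgeR adjusted p = 0.00523). The 3 libraries of day 147 hold 12376397 to 21540987 counts and those of day 39 hold 18233868 to 35918095, and the part of depth was not tested. The 7 that fell became 2 without replicate 4 and 4 without replicate 3 of day 147, and 4 without replicate 4 of day 39.

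Of the rising members, 16 rose in both strains, 33 in GRZ-D and not in MZCS-0403, 14 in MZCS-0403 and not in GRZ-D, and 48 in neither. Among the 33 are Nfu_g_1_013975 and Nfu_g_1_011514, which fell in MZCS-0403 (log2 change -1.285 and -0.628, SE 0.36 and 0.227, edgeR adjusted p = 0.00347 and 0.0244). Among the 14 is Nfu_g_1_006855, which fell in GRZ-D (log2 change -2.30, SE 0.722, edgeR adjusted p = 0.00656). The share over all genes was counted for the 16 alone. The 16 are 14.4% of the rising members, and 7.94% of all genes tested and 2.75% of the 5052 rose in both. A call in one strain and none in the other does not show that the strains differ. A difference of age changes was tested from day 21 in both strains. It was the change to day 100 in GRZ-D minus the change to day 147 in MZCS-0403. Because MZCS-0403 enters from day 21 and not from day 39, it is not the difference between the calls above. For Nfu_g_1_021215, which rose by 1.29 in GRZ-D and by 2.59 in MZCS-0403 in those, it was 3.39. The tested difference shares the day 21 and day 100 libraries of GRZ-D and the day 147 libraries of MZCS-0403 with the comparisons above. For 26 rising members it was more positive in GRZ-D (23.4%), for 24 it was more negative, and 61 did not pass the test. Of the 26, 17 also rose in GRZ-D by day 100. Others did not, such as Nfu_g_1_014894, with a change there of -0.091. Both tests hold the same GRZ-D change, which favours such a joint call for any gene. Its share over all genes was not counted. Over all genes tested 18.3% were more positive and 17.9% more negative, and over the 5052 genes 27.8% and 16.2%. The share of rising members more positive in GRZ-D thus lay between these backgrounds. Their share more negative, 21.6%, lay above both. Of the 33 rising members kept with TMM totals, 6 were more positive (18.2%) and 10 more negative (30.3%). Without replicate 4 of MZCS-0403 at day 147 the 26 became 14. Of the 9 falling members, 3 were more positive in GRZ-D, 6 did not pass the test, and 0 were more negative by edgeR, also at an unadjusted p under 0.05, or by DESeq2. Their median difference was 0.70, and with only the compared groups in the fit 5 were more positive.

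**Figure D4:**
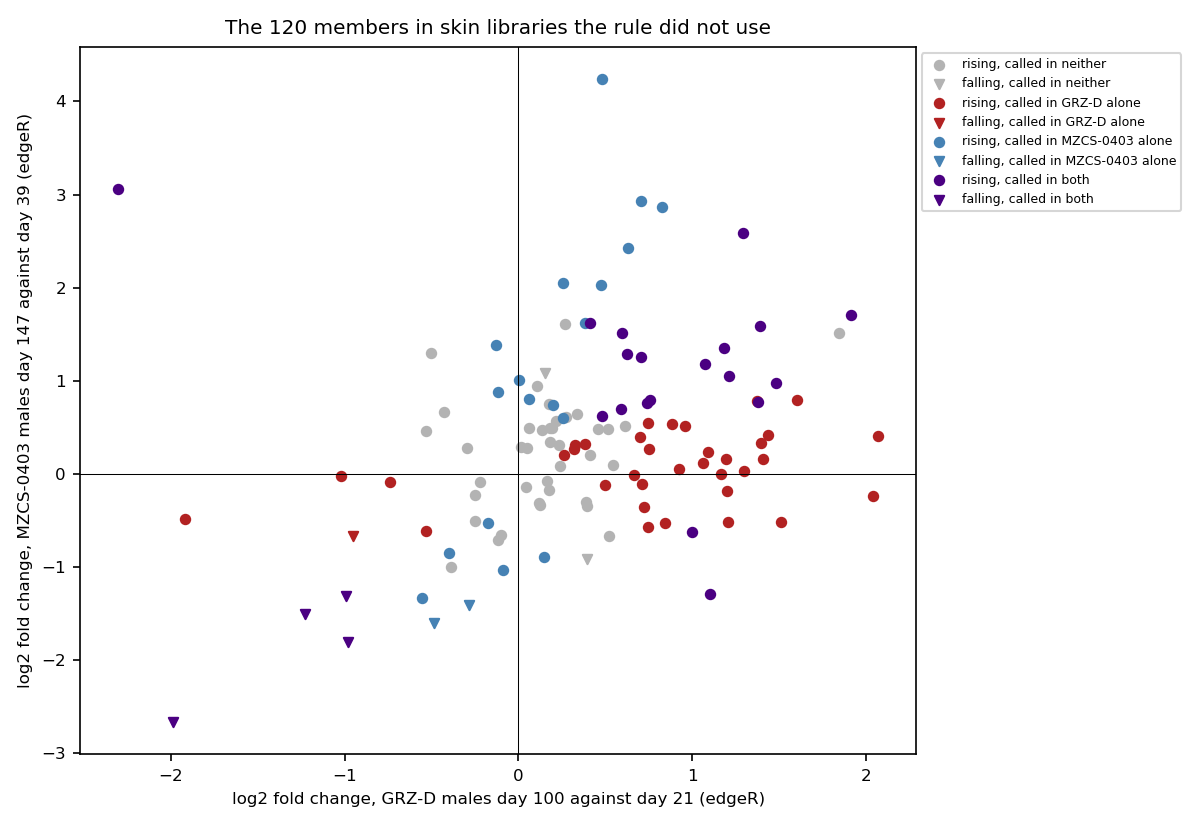
log2 fold change of the 120 members in skin libraries that the choice did not use, GRZ-D day 100 against day 21 (x axis) and MZCS-0403 day 147 against day 39 (y axis), 1 point per gene, coloured by the comparison in which edgeR called it, in either direction. Called in both and positive in both were 16 rising members. Called in opposite directions were Nfu_g_1_013975 (1.105 and -1.285) and Nfu_g_1_011514 (1.002 and -0.628), at the lower right, and Nfu_g_1_006855, at the upper left. The level of Nfu_g_1_006855 in GRZ-D was low, with an L of 0.783 at day 21 and 0.419 at day 100. Replicate 8 of day 21 lay far above the median of its group.

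Nfu_g_1_021215 was at 5.71 to 12.8 CPM in GRZ-D at day 21 and 11.1 to 38.8 CPM at day 100, while in MZCS-0403 it was at 11.8 to 189 CPM at day 21, with a median of 155, and at 23.9, 34.4 and 35.4 CPM at day 147. The difference of the changes was 3.39 (SE 0.727, edgeR adjusted p = 0.0002). It nevertheless rose in MZCS-0403 from day 39, at 3.02, 3.35, 5.01 and 9.22 CPM, to day 147 (log2 change 2.59, SE 0.603, edgeR adjusted p = 0.000473), and its median at day 147 lay below that of day 21. For Nfu_g_1_015289 the difference was 3.38 (SE 1.32, edgeR adjusted p = 0.0378), with MZCS-0403 at 0.943 to 38.3 CPM at day 21 and 5.56, 6.54 and 9.03 CPM at day 147. Nfu_g_1_004531 had a difference of -4.38 (SE 0.524, edgeR adjusted p = 2.33e-09), and it was at 383 to 504 CPM in MZCS-0403 at day 21. For Nfu_g_1_006855 it was -5.32 (SE 1.07, edgeR adjusted p = 7.63e-05), and in GRZ-D at day 21 this gene was at 0 to 10.1 CPM with a median of 0.259. The value of 10.1 CPM is that of replicate 8. Without this library the day 21 difference between GRZ-D and MZCS-0403 moved from 0.106 to -1.808.

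At day 21 more of the rising members were lower than higher in GRZ-D, set against either other strain. Against MZM-0403, 53 of the 111 were lower (47.7%), 7 were higher and 51 did not pass the test, with a median log2 difference of -0.49. Over all genes tested 20.8% were lower and 21.6% higher, and over the 5052 genes 25.8% and 23.0%. Against MZCS-0403, 44 were lower (39.6%), 13 were higher and 54 did not pass the test, with a median of -0.38, where 21.9% of all genes tested and 24.1% of the 5052 were lower and 19.7% and 21.8% were higher. The GRZ-D libraries of day 21 are shared by both comparisons and by the change to day 100. The choice set a lowest level in MZM-0403 and none in GRZ-D, and it kept genes that were low in GRZ-D at day 35 relative to day 147.

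The lowest members relative to MZM-0403 at day 21 were Nfu_g_1_015289, with a log2 difference of -5.20 (SE 0.844, edgeR adjusted p = 1.07e-06), and Nfu_g_1_021215, with -5.01 (SE 0.459, edgeR adjusted p = 1.92e-13) and 98.5 to 407 CPM in MZM-0403. By total counts the L of Nfu_g_1_015289 in MZM-0403 was 4.408 at day 21 and 2.015 at day 35, beside 0.772 in GRZ-D at day 35. For Nfu_g_1_021215 it was 7.733 and 4.417, beside 3.926. Relative to MZCS-0403 at day 21 both genes were again the lowest, with -4.83 (SE 0.836, edgeR adjusted p = 4.79e-06) and -4.07 (SE 0.442, edgeR adjusted p = 6.52e-11). The MZCS-0403 libraries of day 21 overlapped with GRZ-D for Nfu_g_1_021215, with a lowest value of 11.8 CPM, and for Nfu_g_1_015289. Of the falling members, 2 were higher and 3 lower in GRZ-D, against either strain. The falling member Nfu_g_1_016498 was at 12.1 to 28.7 CPM in GRZ-D at day 21, 1.49 to 6.05 CPM in MZM-0403 and 2.94 to 9.64 CPM in MZCS-0403, with no overlap (log2 differences 2.64 and 1.86, SE 0.424 and 0.403, edgeR adjusted p = 8.55e-07 and 0.000176). Nfu_g_1_011955 was higher than in MZM-0403 by 2.84 (SE 0.338, edgeR adjusted p = 6.45e-10), and the rising member Nfu_g_1_004056 was higher than in MZCS-0403 by 2.56 (SE 0.45, edgeR adjusted p = 6.42e-06).

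In the brain of GRZ-D, day 147 against day 35 repeats the ages of the choice in the other tissue, sampled from the same fish and with replicate 3 of day 147 included. Of the rising members, 25 rose (22.5%), 9 fell and 77 did not pass the test, with a median log2 change of 0.12. Over the 22919 genes tested in brain 11.8% rose and 12.6% fell, and over the 5052 genes 12.4% and 12%. With only the compared groups in the fit 43 rose and 17 fell, and 9071 genes were called in all in place of 5590. With all libraries of the tissue in the fit 17 rising members rose and 2 fell, 1 falling member fell, and 2236 genes were called. That setting adds the groups with libraries closer to the tissue not on their label. Of the 9 falling members 4 fell in brain, and 0 rose by edgeR, also at an unadjusted p under 0.05, or by DESeq2. Nfu_g_1_014894 rose from 11.8 to 15.8 CPM at day 35 to 45.1 to 63.8 CPM at day 147 in brain, without overlap (log2 change 2.04, SE 0.13, edgeR adjusted p = 6.23e-19). Nfu_g_1_020053 rose from 16.8 to 26.0 CPM to 62.3 to 104 CPM, also without overlap (log2 change 1.94, SE 0.219, edgeR adjusted p = 2.58e-10). The falling member Nfu_g_1_018675 fell in brain as well, from 58.2 to 82.4 CPM to 9.93 to 34.1 CPM (log2 change -1.54, SE 0.268, edgeR adjusted p = 1.11e-05). The rising member Nfu_g_1_013946 fell in brain by 0.95 (SE 0.133, edgeR adjusted p = 1.04e-07). Nfu_g_1_004531 was at 2535 to 3101 CPM in brain at day 35 and 3091 to 3762 CPM at day 147, a change of 0.22 that did not pass the test (SE 0.14, edgeR adjusted p = 0.279).

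**Figure D5:**
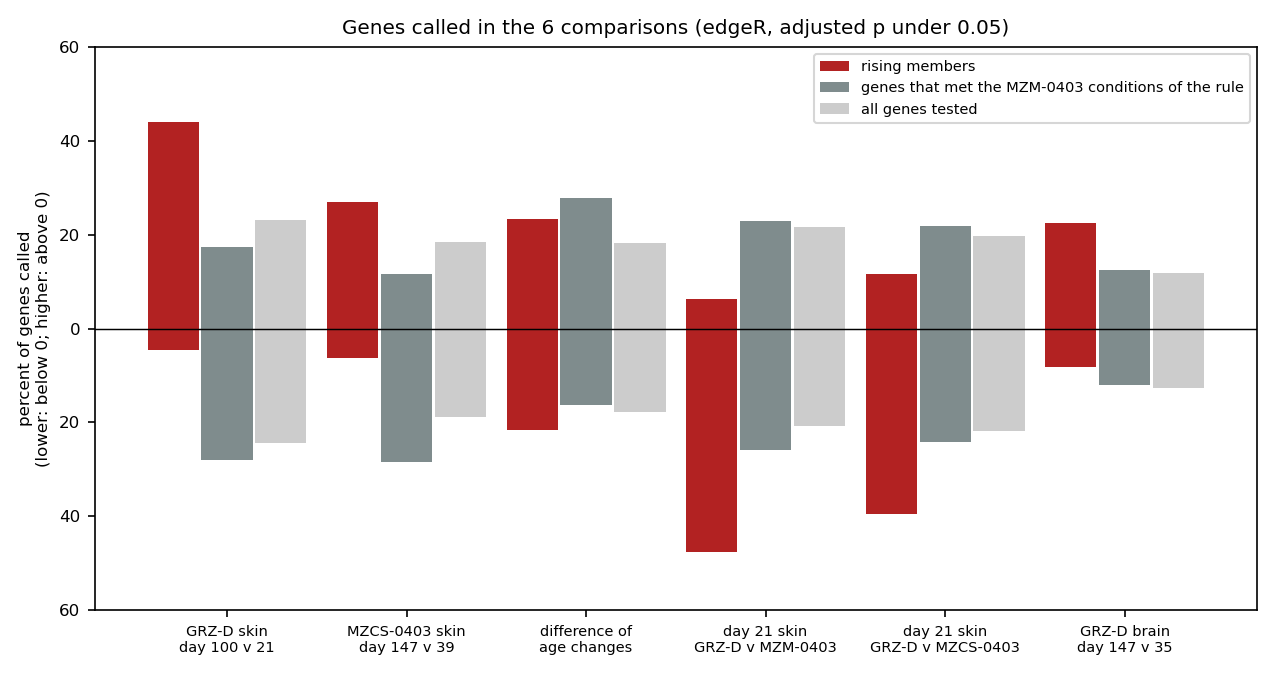
Percent of genes called by edgeR at an adjusted p under 0.05 as higher (above 0) and lower (below 0) in the 6 comparisons, for the 111 rising members, the 5052 genes that met the MZM-0403 conditions and all genes tested. The rising members stand at 44.1% higher in GRZ-D skin at day 100 against day 21 and at 47.7% lower in GRZ-D against MZM-0403 at day 21; for the difference of age changes they stand at 23.4% and 21.6%.

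In the 46 skin libraries that the choice did not use, in 9 groups, the median SD within groups of log2(CPM + 1) was 0.348 for rising and 0.483 for falling members, against 0.226 for the 5052 genes. Members ranged from 0.121 to 1.27 in this SD. The median pairwise Pearson r of deviations from group means over these libraries was 0.101 among rising members, 0.258 among falling members and 0.003 among the 5052 genes; these libraries share tissue, kit and table, and genes are not independent replicates. At day 21, by total counts over 20 libraries per tissue, 30 of the rising members (27.0%) were higher in skin than in brain by at least 1 on the log2 scale and 44 (39.6%) were higher in brain, against 14.9% and 44.4% of the 5052 genes. Of the 9 falling members, 6 were higher in skin and 1 in brain. In bulk tissue, fewer cells of a type and less RNA per cell cannot be told apart.

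The genes most like Nfu_g_1_004531 in deviations from group means over the 46 libraries, among 16562 genes, were Nfu_g_1_019301 (Pearson r = 0.804), Nfu_g_1_019278 (0.798) and Nfu_g_1_024408 (0.764). None is a member; with TMM totals they differed by 0.718, 0.708 and 0.809 between day 287 and day 35 in MZM-0403, and by 4.37, 3.92 and 3.78 between day 147 and day 35 in GRZ-D. In GRZ-D at day 147, Nfu_g_1_019301 was at 5.58 and 15.2 CPM in replicates 2 and 5 and at 66.5, 228 and 477 CPM in the other libraries used. In MZCS-0403 at day 147 it was at 6.54, 68.3 and 139 CPM, lowest in replicate 4, as Nfu_g_1_004531 was. These MZCS-0403 libraries are among the 46 that gave the r, so this is not a further likeness. Most like Nfu_g_1_011955 were Nfu_g_1_023175 (0.824), Nfu_g_1_016387 (0.755) and Nfu_g_1_002480 (0.754), none of which is a member.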

How the data were processed

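Total RNA of brain and skin was extracted with an RNeasy column kit and made into libraries with TruSeq RNA v2, per the labels' protocols. The submitters' processing notes name bcl2fastq 1.8.4, STAR 2.5.1b and featureCounts 1.5.0; the genome build, annotation and strand setting are not given in the sources used here, so reads of overlapping, antisense or near-identical genes may be shared. The authors deposited whole-number counts per gene, not normalised; 752 IDs had no count in any library. The members and gene lists were chosen with earlier results of these data known. Members were selected on log2(CPM + 1) by total counts. Named are the first 8 rising and falling members and those at the limit. Named per test are the 2 called members with the largest change each way at a mean of 5 CPM or more. Also named are the 3 genes most like the first rising and falling member. Nfu_g_1_020053, Nfu_g_1_006855 and others recur under several of these. Nfu_g_1_013975 and Nfu_g_1_011514 are named for their calls in opposite directions.

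Tests were run in R 4.3.3 with edgeR 4.0.16: quasi-likelihood F-test (2-sided), TMM, robust estimation, filterByExpr at a minimum count of 10, 1 mean per group over 69 skin or 70 brain libraries, Benjamini-Hochberg adjustment over all genes tested, called at an adjusted p under 0.05. The SE is the size of the log2 change divided by the square root of F. Skin libraries entered without replicate 3 of GRZ-D males at day 147. Brain totals were 18218533 to 41254724 counts. Libraries of a group come from separate fish, per the labels; no 2 skin libraries of a group agreed within sampling noise (lowest chi-square per gene 7.58 over 187 pairs). The fits were checked on simulated counts with known changes. Of 100 genes changed 2-fold, 77 were recovered for GRZ-D skin at day 100 against day 21 and 86 for GRZ-D brain. For MZCS-0403 skin at day 147 against day 39 it was 44, and for the difference of age changes 34. The part of this in the lower MZCS-0403 counts was not tested. Alternatives were DESeq2 1.42.0, other scaling, filters, sets of libraries, a replicate block and leaving out each replicate. Floors cover counting error only.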

Additional observations from a re-analysis of the deposited data

Results flagged for a closer look

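In 198 groups of 4 to 10 libraries, 16 had 1 library whose distance to the nearest other passed Dixon's 95% limit, which chance gives in about 1 group in 20. All values are CPM with TMM totals in skin. In GRZ-D males, replicate 3 of day 35 stood apart at 1296 for Nfu_g_1_004531, replicate 13 of day 100 at 9.28 and replicate 2 of day 147 at 59.7 for Nfu_g_1_015289, replicate 5 of day 147 at 13.1 for Nfu_g_1_013031, and replicate 4 of day 147 at 12.9 for Nfu_g_1_016498 and at 470.05 for Nfu_g_1_008225. In MZM-0403 females of day 147, replicate 3 stood apart at 41.1 for Nfu_g_1_015289 and at 28.3 for Nfu_g_1_016498, replicate 2 at 37.5 for Nfu_g_1_010552 and at 9.25 for Nfu_g_1_018675, and replicate 5 at 164 for Nfu_g_1_019317. In MZM-0403 males this held for replicate 7 of day 35 at 354 for Nfu_g_1_019317, replicate 3 of day 287 at 15.2 for Nfu_g_1_015289 and replicate 3 of day 21 at 4.08 for Nfu_g_1_025084. In MZCS-0403 females of day 217 it held for replicate 5 at 12.4 for Nfu_g_1_018675 and replicate 4 at 103 for Nfu_g_1_000423.

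For 13 of the named members the tested difference between the age change of GRZ-D (day 100 against 21) and that of MZCS-0403 (day 147 against 21) passed the edgeR threshold. On the log2 scale it was negative for Nfu_g_1_006855 at -5.32, Nfu_g_1_004531 at -4.38, Nfu_g_1_025084 at -3.52, Nfu_g_1_004367 at -2.21 and Nfu_g_1_004056 at -1.89. It was positive for Nfu_g_1_021215 at 3.39, Nfu_g_1_015289 at 3.38, Nfu_g_1_013265 at 2.3, Nfu_g_1_000423 at 2.26, Nfu_g_1_018675 at 2.08, Nfu_g_1_018773 at 1.84, Nfu_g_1_010951 at 1.62 and Nfu_g_1_014894 at 0.91. The difference of Nfu_g_1_006855 rests in part on replicate 8 of GRZ-D at day 21, far above the median of its group.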

How the results depend on the processing

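Of the 120 members, TMM totals kept 38, group medians in place of means 60, and a limit of 0.4 on the MZM-0403 change 77; leaving out 1 library kept 75 to 115, the lowest without MZM-0403 male day 35 replicate 7. The 26 rising members more positive in GRZ-D than in MZCS-0403 became 4 with replicate number as a block and 14 to 28 with 1 library left out. The 25 that rose in brain became 43 with only the compared groups fitted and 42 with the replicate block. They became 17 with all libraries of the tissue and 21 to 26 with 1 library left out. Same-numbered fish of different groups did not pair, so the block has no basis in the design; with it 48 rose in GRZ-D by day 100, 26 rose in MZCS-0403, and 56 and 42 were lower than MZM-0403 and MZCS-0403 at day 21. With 1 library left out these counts were 44 to 52, 26 to 33, 51 to 56 and 37 to 46. The difference of Nfu_g_1_006855 between GRZ-D and MZCS-0403 at day 21, 0.11, ran from -1.81 to 0.308 with 1 library left out, the lowest without GRZ-D male day 21 replicate 8 (edgeR adjusted p = 0.0159), the library at 10.1 CPM. For the other settings the cause was not tested. Depth limits genes near 0.242 CPM in the shallowest skin library.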
